A study of Mus musculus with 24 samples.

Results

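The genes described here make prostaglandins, receive them or break them down. They are 10 of the 37041 genes in the tables, chosen by gene symbol and not by their values: the cyclooxygenases Ptgs1 and Ptgs2, the terminal synthases Ptges, Ptgis and Ptgds, the prostaglandin E2 receptors Ptger1 to Ptger4, and the prostaglandin-degrading enzyme Hpgd. Their polyA RNA was measured in 24 mouse libraries that form 8 groups of 3. C2C12 is an established mouse myoblast line, and it carried either a control or NFIA, which is a DNA-binding regulator from the nuclear factor I group. Control and NFIA-expressing cells were each sampled on day 0 and on day 7, the latter with or without 4 hours of 10 uM forskolin, a drug that activates adenylyl cyclase and so raises cAMP. The other groups are brown adipose tissue (BAT) of neonates, either wild type or labelled NFIA-KO. The vector that carried NFIA, the medium between day 0 and day 7, the kind of knockout allele and any pooling of animals are not stated in the labels.

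Prostaglandins are short-lived lipid signals. Phospholipase A2 frees arachidonic acid from membranes, a cyclooxygenase turns it into prostaglandin H2, and a terminal synthase turns that into prostaglandin E2, prostacyclin, prostaglandin D2 or another prostanoid. Prostaglandin E2 acts through G-protein-coupled receptors: EP2 and EP4 raise cAMP, EP3 mostly lowers it and EP1 acts through calcium. In adipose tissue, prostanoids act on adipocyte precursors and on the response to cold and to beta-adrenergic signals. In muscle, they act on myoblast growth and fusion.

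Levels are in FPKM, which takes account of both a transcript's length and a library's depth, so they can be set side by side between genes. The mm9 coordinates given with a gene are the locus listed for its row and may span more than the gene. Each difference is given on the scale log2(FPKM + 1) with its standard error, from limma's moderated two-sided test over all genes. A gene was called at a Benjamini-Hochberg adjusted p under 0.05, and the share of all tested genes that were called is given as the background of each comparison. Adding 1 understates the change of low genes, so the fold of the mean FPKM is also given for the main changes. The labels do not say that the libraries of a group came from separate cultures or animals, so p-values measure the spread between these samples, which may be technical.

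Nfia itself checks the labels. It read between 0.26 and 2.23 FPKM in the 9 control C2C12 libraries. In NFIA-expressing cells it was 1269 ± 15.6 FPKM at day 0, 3343 ± 212 at day 7 and 9852 ± 608 at day 7 with forskolin (SD, n = 3 each), so the level of NFIA moved with day and with forskolin. In tissue its mean went against the label, at 41.4 ± 2.79 FPKM in the libraries labelled NFIA-KO and 29.9 ± 4.83 in wild type (SD, n = 3 each). The tissue groups did not overlap, but the difference was not called (0.47 ± 0.15, adjusted p = 0.097, limma). A gene-level FPKM does not show whether a deleted exon was read, so the tissue groups are called by their labels throughout. Among the cell type markers, the summed level of 6 adipocyte genes was 22248 to 24424 FPKM in NFIA cells at day 7 and 1.57 to 6.85 in control cells at day 7. The summed level of 7 skeletal muscle genes was 870 to 1046 and 5264 to 5469 FPKM in the same groups. Fibroblast and progenitor markers summed to 233 to 238 and 2455 to 2651 FPKM, and smooth muscle and pericyte markers to 229 to 286 and 1117 to 1236 FPKM, again in NFIA and control cells at day 7. Not all markers went with these sums. Of 6 fibroblast and progenitor markers, 5 were called lower and 1 higher in NFIA cells at day 7. Of 4 tested smooth muscle and pericyte markers, 3 were called lower and 1 higher. In that comparison 55.5% of all genes were called. At day 0, 6 of 6 fibroblast and progenitor markers were called higher in NFIA cells, and 3 of 4 tested smooth muscle and 3 of 7 skeletal muscle markers were called lower. These marker levels moved with the NFIA comparisons, and their part in the results was not tested. Fewer cells of a type and less RNA per cell cannot be told apart in these bulk libraries.

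Promoters are shown for Ptgs1, Ptgs2 and Ptger4, because the forskolin response of these 3 genes differed between NFIA and control cells in the values that follow. The sequences are the 250 bases before the RefSeq start on GRCm38.p6, written 5′ to 3′ on the gene's strand. Capitals mark matches, on either strand, to the nuclear factor I core TTGGC and to the palindromic C/EBP motif TTGCGCAA. Ptgs1 lies at chr2:36230176-36230425 on the plus strand, Ptgs2 at chr1:150099781-150100030 on the plus strand and Ptger4 at chr15:5244188-5244437 on the minus strand.
Ptgs1: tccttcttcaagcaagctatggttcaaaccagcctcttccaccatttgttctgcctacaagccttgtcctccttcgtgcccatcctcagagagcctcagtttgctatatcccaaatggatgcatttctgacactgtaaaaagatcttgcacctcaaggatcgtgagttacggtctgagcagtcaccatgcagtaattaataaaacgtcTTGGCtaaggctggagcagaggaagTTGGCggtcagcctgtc
Ptgs2: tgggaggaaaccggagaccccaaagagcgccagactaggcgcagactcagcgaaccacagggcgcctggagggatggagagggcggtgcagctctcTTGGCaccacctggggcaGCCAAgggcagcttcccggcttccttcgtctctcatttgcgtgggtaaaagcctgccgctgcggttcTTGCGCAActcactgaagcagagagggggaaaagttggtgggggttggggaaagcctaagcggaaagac
Ptger4: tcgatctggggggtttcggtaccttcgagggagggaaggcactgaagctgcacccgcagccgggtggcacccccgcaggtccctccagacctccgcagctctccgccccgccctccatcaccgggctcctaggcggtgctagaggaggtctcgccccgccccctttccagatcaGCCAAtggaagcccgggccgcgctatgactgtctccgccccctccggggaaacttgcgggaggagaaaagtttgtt
Ptgs2 site after the start: caccactaCGTCACGTGgagtccgc

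The last sequence holds bases 6 to 30 after the RefSeq start of Ptgs2, and its capitals mark the cAMP response element core TGACG, read on the other strand, which overlaps the E-box CACGTG. Positions count from the RefSeq start, and where transcription starts in these cells was not tested. The 8 letters of the full cAMP response element, TGACGTCA, were not found in the 300-base window of any of the 8 members with a RefSeq promoter. Ptgis and Ptger1 have no entry in the table. Among the members whose promoter is not shown, TTGGC was also matched in Ptges, Ptgds and Ptger2, and not in Ptger3 or Hpgd. Over all 32851 RefSeq promoters of 300 bases, 46.7% hold TTGGC, 20.8% hold TGACG, 7.15% hold CACGTG and 0.183% hold TTGCGCAA. Most of these letters are common in promoters, and the C/EBP letters of Ptgs2 are the rarest of those matched. A match describes the letters and not a bound site.

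**Figure D1:**
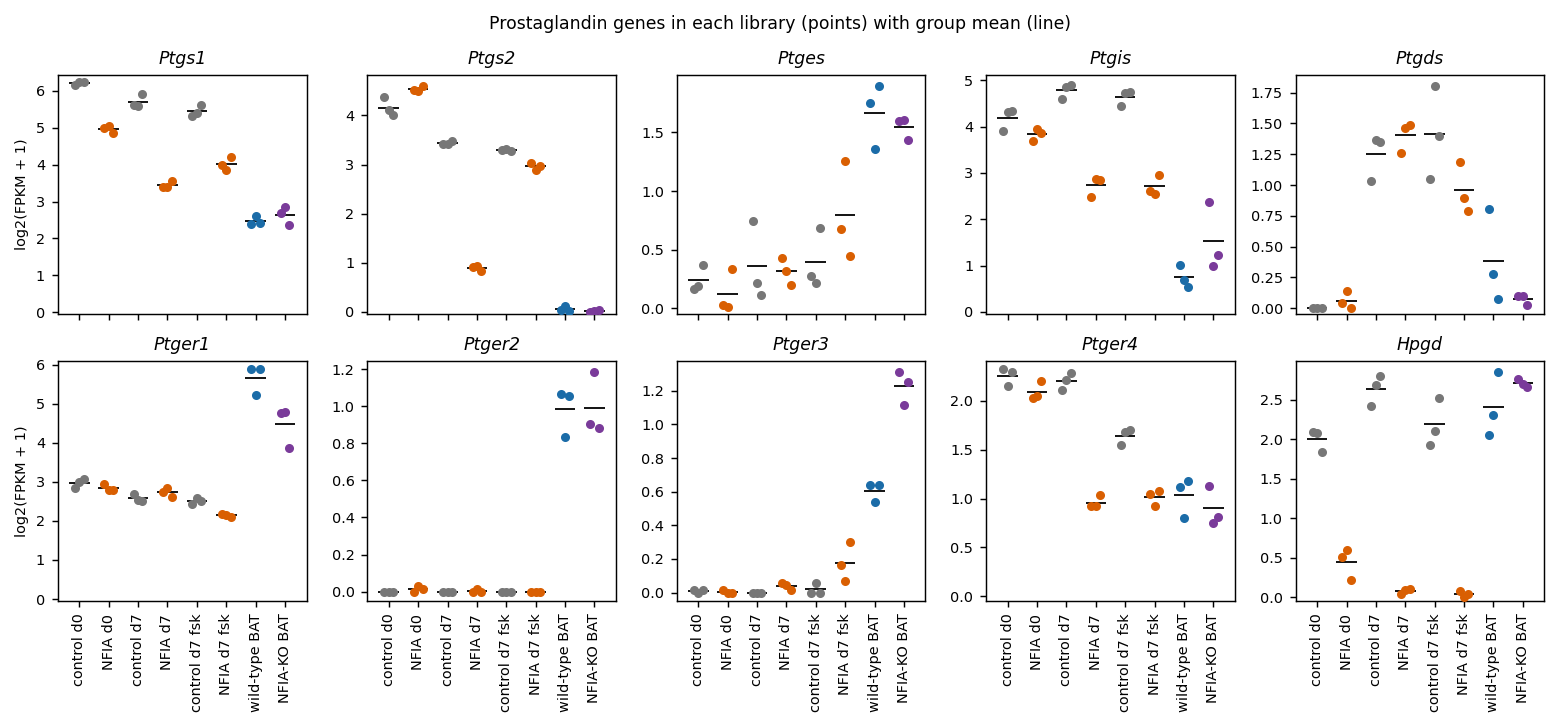
Level of each gene in each of the 24 libraries, as log2(FPKM + 1), with a separate vertical scale for each gene; points are libraries, lines are means of 3, and fsk is forskolin. Ptgs2 in NFIA cells drops to between 0.77 and 0.91 FPKM at day 7 and reads 6.38 to 7.22 FPKM after forskolin, while Hpgd is at or near 0 in NFIA cells at day 7 with and without forskolin.

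The cyclooxygenases carry out the first committed step. Ptgs1 encodes the form that many tissues express all the time, and Ptgs2 encodes the inducible form. Ptgs1 (ENSMUSG00000047250.6, mm9 chr2:36085946-36107792) was the most abundant of the 10 genes in control cells. At day 0 it read 70.2, 74.9 and 74.5 FPKM in control cells and 30.5, 31.8 and 28.2 FPKM in NFIA cells. The groups did not overlap, and Ptgs1 was 2.43-fold lower in NFIA cells (log2 difference -1.25 ± 0.11, adjusted p = 5.2e-07, limma).
Ptgs2 (ENSMUSG00000032487.7, mm9 chr1:151947254-151955140) went the other way at day 0. It read 19.7, 16.3 and 15.03 FPKM in control cells and 22.0, 21.8 and 23.3 FPKM in NFIA cells, again with no overlap. The difference was small, 1.32-fold higher in NFIA cells (0.38 ± 0.08, adjusted p = 0.0028, limma), and its adjusted p was 0.086 when the fit held these 6 libraries alone.

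By day 7 both cyclooxygenases were lower in NFIA cells. Ptgs1 read 48.1, 46.9 and 58.8 FPKM in control cells and 9.43, 9.48 and 10.8 FPKM in NFIA cells. That is 5.18-fold lower (-2.26 ± 0.11, adjusted p = 1.1e-10, limma). Ptgs2 read 9.70, 9.68 and 10.2 FPKM in control cells and 0.88, 0.91 and 0.77 FPKM in NFIA cells. It was 11.5-fold lower (-2.55 ± 0.08, adjusted p = 9.3e-13, limma), and each NFIA library was below 1 FPKM.
The fall with time differed between the cell lines. From day 0 to day 7, Ptgs2 fell 1.72-fold in control cells (-0.72 ± 0.08, adjusted p = 3.5e-06) and 26.2-fold in NFIA cells (-3.65 ± 0.08, adjusted p = 1.8e-14). The interaction of NFIA with day, which tests the difference of these changes, was -2.93 ± 0.12 (adjusted p = 2.5e-11, limma). Ptgs1 fell 1.43-fold in control cells and 3.05-fold in NFIA cells, with an interaction of -1.004 ± 0.15 (adjusted p = 7.1e-05, limma). In the numbered libraries alone, whose column headers carry the later date, the interactions were -3.07 for Ptgs2 and -0.98 for Ptgs1. The earlier date holds 1 C2C12 library per group and allows no test of its own.

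Forskolin raised both cyclooxygenases in NFIA cells. After 4 hours, Ptgs2 read 7.22, 6.38 and 6.81 FPKM, against 0.88, 0.91 and 0.77 without the drug. The rise was 7.97-fold (2.07 ± 0.08, adjusted p = 9.8e-11, limma). Ptgs1 rose 1.55-fold, to 14.8, 13.6 and 17.6 FPKM (0.58 ± 0.11, adjusted p = 0.00084, limma).
In control cells neither change passed the test. Ptgs2 read 8.86, 9.01 and 8.70 FPKM with forskolin (-0.14 ± 0.08, adjusted p = 0.60), and Ptgs1 read 38.7, 41.5 and 47.7 FPKM (-0.26 ± 0.11, adjusted p = 0.31). The difference between the responses passed for both, at 2.21 ± 0.12 for Ptgs2 (adjusted p = 7.3e-09, limma) and 0.84 ± 0.15 for Ptgs1 (adjusted p = 0.0012, limma). In the numbered libraries alone these interactions were 2.19 and 0.80. With forskolin, Ptgs2 was 1.30-fold lower in NFIA than in control cells (-0.34 ± 0.08, adjusted p = 0.0021, limma), a call that quantile normalization ended (-0.22, adjusted p = 0.078). Ptgs1 was 2.78-fold lower with forskolin (-1.42 ± 0.11, adjusted p = 2.1e-08, limma). Nfia itself read higher with forskolin in NFIA cells, as given above, and its part in these responses was not tested.

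The mix of cyclooxygenase transcripts changed with these levels. Ptgs2 made up 18.8% ± 2.68 of the summed Ptgs1 and Ptgs2 FPKM in control cells at day 0 and 42.6% ± 2.42 in NFIA cells (SD, n = 3 each). At day 7 the shares were 16.2% ± 1.28 and 7.98% ± 1.16, and with forskolin they were 17.3% ± 1.67 and 30.9% ± 2.61 (SD, n = 3 each). In control cells the share thus stayed within 14.8% and 21.9% over all 9 libraries, while in NFIA cells the 3 groups did not overlap. Among the 6 C2C12 groups, the sum itself was lowest in NFIA cells at day 7, at 10.8 ± 0.711 FPKM, and highest in control cells at day 0, at 90.2 ± 0.867 FPKM (SD, n = 3 each).

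**Figure D2:**
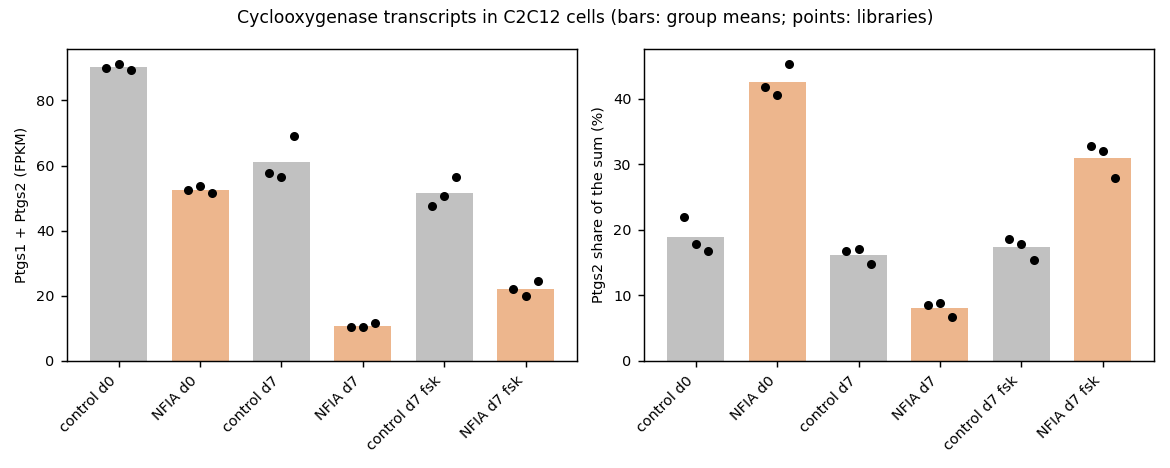
Left, summed FPKM of Ptgs1 and Ptgs2 in the 6 C2C12 groups; right, the share of that sum from Ptgs2, in percent. Bars are means and points are the 3 libraries of a group; the sum is lowest and the share is lowest in NFIA cells at day 7, and with forskolin the share is 30.9% in NFIA cells and 17.3% in control cells.

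Downstream of the cyclooxygenases, Ptgis makes prostacyclin, Ptges makes prostaglandin E2 and Ptgds makes prostaglandin D2. Ptgis (ENSMUSG00000017969.7, mm9 chr2:166928878-167066104) was the main terminal synthase of the 3 in C2C12 cells. At day 7 it read 23.0, 27.9 and 28.9 FPKM in control cells and 4.57, 6.32 and 6.18 FPKM in NFIA cells. The groups were far apart, with Ptgis 4.67-fold lower in NFIA cells (-2.05 ± 0.15, adjusted p = 2e-08, limma). With forskolin it read 20.9, 25.4 and 25.7 FPKM in control and 5.11, 4.87 and 6.76 FPKM in NFIA cells (-1.93 ± 0.15, adjusted p = 3.4e-08, limma).
At day 0, Ptgis read 13.9, 18.9 and 19.2 FPKM in control cells and 11.8, 14.5 and 13.6 FPKM in NFIA cells. These groups overlapped and the difference was not called in the main fit (-0.35 ± 0.15, adjusted p = 0.14, limma). It was called in the numbered libraries alone (-0.42, adjusted p = 0.024) and with header date as a term (-0.35, adjusted p = 0.0051). Quantile normalization (adjusted p = 0.041), median-of-ratios rescaling (0.035) and leaving out control day 0 replicate 1 (0.038) gave the call too. Ptgis rose with time in control cells (0.60 ± 0.15, adjusted p = 0.0049) and fell in NFIA cells (-1.10 ± 0.15, adjusted p = 1.9e-05), with an interaction of -1.70 ± 0.22 (adjusted p = 1.2e-05, limma). Of the 7 genes tested in cells, Ptgis and Hpgd were those called higher at day 7 in control cells and lower at day 7 in NFIA cells. No forskolin response of Ptgis was called, at -0.14 ± 0.15 in control cells (adjusted p = 0.91) and -0.02 ± 0.15 in NFIA cells (adjusted p = 0.93).

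Ptgds (ENSMUSG00000015090.7, mm9 chr2:25322229-25325566) rose with time in both lines. It was listed at 0 in the 3 control libraries at day 0 and at 0.03, 0.10 and 0 FPKM in NFIA cells. No day 0 library reached the 1 FPKM that the filter asks of 3 libraries, so Ptgds entered the test through day 7 libraries alone. At day 7 it read 1.05, 1.57 and 1.55 FPKM in control cells and 1.39, 1.75 and 1.81 FPKM in NFIA cells. The rise was called in control cells (1.25 ± 0.16, adjusted p = 1.2e-05, limma) and in NFIA cells (1.34 ± 0.16, adjusted p = 3.3e-06, limma), and the NFIA and control groups at day 7 overlapped (0.15 ± 0.16, adjusted p = 0.44). With forskolin it read 1.07, 2.50 and 1.63 FPKM in control cells and 1.28, 0.86 and 0.73 FPKM in NFIA cells. That difference passed at -0.46 ± 0.16 (adjusted p = 0.021, limma) although the groups overlapped, and it lost its call without control replicate 2 (adjusted p = 0.12), NFIA replicate 2 (0.059) or NFIA replicate 3 (0.085). The fall of Ptgds with forskolin in NFIA cells (-0.44 ± 0.16, adjusted p = 0.044, limma) lost its call in 4 of the 6 fits that left out a library, those without replicate 2 or 3 of either group, with adjusted p from 0.11 to 0.15.
Ptges (ENSMUSG00000050737.10, mm9 chr2:30744991-30785383) did not pass the filter of 1 FPKM in 3 libraries in C2C12 cells. Its highest value there was 1.39 FPKM, in an NFIA library with forskolin, and the other 17 libraries were between 0.01 and 0.68 FPKM. In these cells Ptgs1, at 9.43 FPKM or more, was thus well above this inducible prostaglandin E synthase. Ptgs2 was too, except in NFIA cells at day 7 without forskolin. There Ptgs2 read 0.77 to 0.91 FPKM and Ptges 0.15 to 0.35 FPKM, both near 0. Ptges2, another gene named as a prostaglandin E synthase, had group means of 20.5 to 34.9 FPKM in C2C12 cells. No difference of Ptges2 was called there.

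Among the receptors, Ptger4 and Ptger1 passed the filter in C2C12 cells, and Ptger2 and Ptger3 did not. Ptger4 (ENSMUSG00000039942.9, mm9 chr15:5093861-5194187) encodes EP4, which couples to a rise in cAMP. At day 7 it read 3.33, 3.64 and 3.88 FPKM in control cells and 0.89, 0.89 and 1.05 FPKM in NFIA cells. It was 3.83-fold lower with NFIA (-1.25 ± 0.08, adjusted p = 2.9e-09, limma), whereas at day 0 the groups overlapped at 3.45 to 4.02 and 3.08 to 3.61 FPKM (-0.16 ± 0.08, adjusted p = 0.19). From day 0 to day 7 it fell 3.48-fold in NFIA cells (-1.14 ± 0.08, adjusted p = 9.1e-09), while in control cells the difference was -0.05 ± 0.08 (adjusted p = 0.62), and the interaction was -1.09 ± 0.11 (adjusted p = 1.3e-06, limma). The control difference was called under quantile normalization (-0.22, adjusted p = 0.028, limma).
Ptger4 was also the member called for forskolin in control cells. There it fell 1.70-fold, to 1.92, 2.20 and 2.26 FPKM (-0.56 ± 0.08, adjusted p = 0.00063, limma), with no overlap. In NFIA cells with forskolin it read 1.06, 0.90 and 1.11 FPKM, overlapping the libraries without the drug (0.06 ± 0.08, adjusted p = 0.64), and the responses differed by 0.62 ± 0.11 (adjusted p = 0.0011, limma). The level in NFIA cells was thus below that of forskolin-treated control cells before any drug, and with forskolin Ptger4 remained 2.08-fold lower in NFIA cells (-0.63 ± 0.08, adjusted p = 5.8e-06, limma).

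Ptger1 (ENSMUSG00000019464.5, mm9 chr8:86190732-86223078) encodes EP1. It read 3.31 to 7.47 FPKM over the 18 C2C12 libraries. NFIA and control cells overlapped at day 0 (-0.13 ± 0.08, adjusted p = 0.32) and at day 7 (0.15 ± 0.08, adjusted p = 0.14). The day 7 difference was called under quantile normalization (0.26, adjusted p = 0.023, limma). With forskolin Ptger1 read 4.38, 4.96 and 4.66 FPKM in control cells and 3.53, 3.48 and 3.31 FPKM in NFIA cells (-0.35 ± 0.08, adjusted p = 0.0018, limma), and quantile normalization ended this call (-0.13, adjusted p = 0.21).
The forskolin response of Ptger1 was called in NFIA cells, a 1.64-fold fall (-0.58 ± 0.08, adjusted p = 7.6e-05, limma), and not in control cells (-0.08 ± 0.08, adjusted p = 0.91). The responses differed by -0.50 ± 0.12 (adjusted p = 0.0067, limma). The Ptger1 values are uncertain as a measure of this receptor's own transcript. The kit was stranded, per the labels, but no source names the strand setting of the counting, and reads of other transcripts over its exons cannot be told apart from its own.
Ptger2 (ENSMUSG00000037759.5, mm9 chr14:45470910-45626575) encodes EP2 and was at most 0.02 FPKM in every C2C12 library. Ptger3 (ENSMUSG00000040016.9, mm9 chr3:157229856-157307722) encodes EP3 and was at most 0.23 FPKM there, with its highest values, 0.12, 0.05 and 0.23 FPKM, in NFIA cells with forskolin. These are levels at which the depth of the libraries, which is unknown, limits what can be read.

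Hpgd (ENSMUSG00000031613.8, mm9 chr8:58773349-58799843) encodes 15-hydroxyprostaglandin dehydrogenase, which inactivates prostaglandins. It was lower in NFIA cells from the start. At day 0 it read 3.27, 3.22 and 2.57 FPKM in control cells and 0.42, 0.51 and 0.16 FPKM in NFIA cells, which is 8.31-fold lower (-1.56 ± 0.14, adjusted p = 9.5e-07, limma). At day 7 it read 4.34, 5.44 and 5.98 FPKM in control cells and 0.03, 0.06 and 0.07 FPKM in NFIA cells (-2.56 ± 0.14, adjusted p = 6.7e-10, limma). With forskolin it read 2.82, 3.32 and 4.77 FPKM in control cells, against 0.05, 0 and 0.03 FPKM in NFIA cells (-2.15 ± 0.14, adjusted p = 4.4e-09, limma).
No NFIA library at day 7 was above 0.07 FPKM, and no control library of any day was below 2.57 FPKM. Hpgd entered the test through the control libraries alone, since no NFIA library reached 1 FPKM. In control cells Hpgd rose 1.74-fold from day 0 to day 7 (0.63 ± 0.14, adjusted p = 0.002, limma). Its further fall in NFIA cells was called at -0.36 ± 0.14 (adjusted p = 0.043, limma), but it kept its call in 1 of the 6 fits that left out a library, that without NFIA day 0 replicate 3, and in the others the adjusted p was 0.076 to 0.16. The interaction with day, -0.997 ± 0.20 (adjusted p = 0.00091, limma), was kept in all 12 such fits. Hpgd was thus called lower in NFIA cells at day 7 beside Ptgs1, Ptgs2 and Ptgis, while Ptgds was not and Ptges was not tested.

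Counted over the 7 members tested in cells, 3 were called for NFIA at day 0, of which Ptgs2 was higher and Ptgs1 and Hpgd were lower, with 21.2% of all 14351 tested genes called in that comparison. At day 7, 5 of 7 were called and all 5 were lower, with 55.5% of all genes called. With forskolin 7 of 7 were lower in NFIA cells, with 61.6% called over all genes, and under quantile normalization this count was 4. The members' median difference at day 7 was -2.05, beside -0.03 over all tested genes, and with forskolin it was -0.63, beside -0.04.
From day 0 to day 7, 6 of 7 were called in control cells, 3 higher and 3 lower, with 48.9% of all genes called. In NFIA cells 6 of 7 were called, with Ptgds higher and 5 lower, and the background was 56.9%. The forskolin comparison called 1 of 7 members in control cells, where 3.97% of all genes were called, and 4 of 7 in NFIA cells, where 32.6% were. The interaction with day called 5 of 7, with 45.3% of all genes, and the interaction with forskolin called 4 of 7, with 20.1%. With header date as a term these counts were 6 and 5, since Ptger1 by day (adjusted p = 0.044) and Ptgds by forskolin (0.041) then passed, and 5149 rather than 2890 genes were called for the forskolin interaction. Both also passed in the numbered libraries alone, with adjusted p of 0.013 for Ptger1 by day and 0.0079 for Ptgds by forskolin. Since large shares of all genes were called in the comparisons at day 7, the number of members called there is not by itself particular to this pathway. These comparisons share libraries, so their counts are not independent. Of the members counted, Ptgds entered the tests through day 7 libraries alone and Hpgd through control libraries alone.

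**Figure D3:**
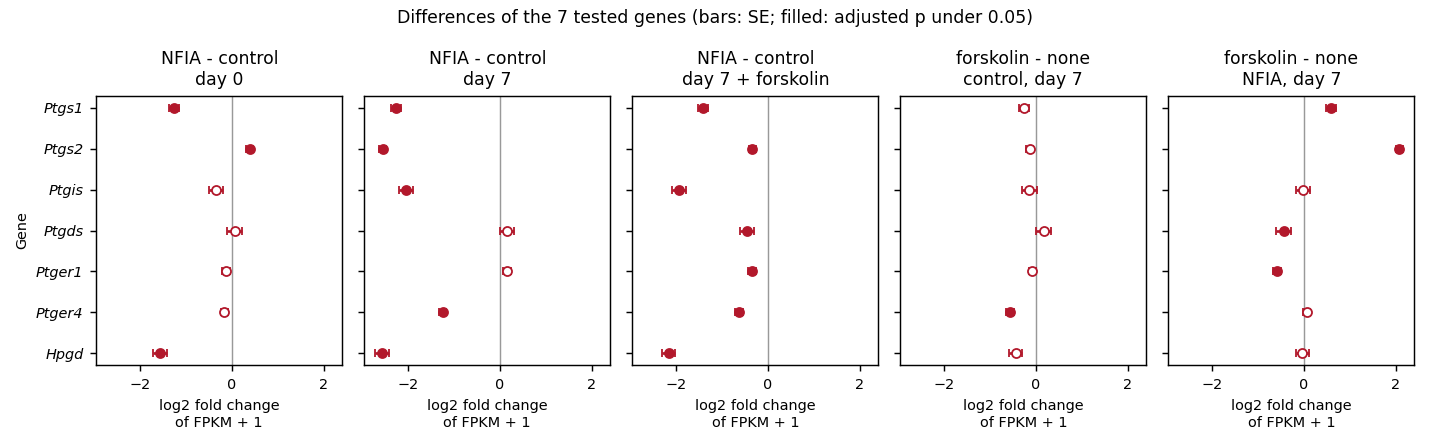
Log2 fold change of FPKM + 1 for the 7 tested genes in 5 comparisons, with bars for the standard error; filled points have an adjusted p under 0.05. In the day 7 comparison of NFIA with control cells, Ptgs1, Ptgs2, Ptgis, Ptger4 and Hpgd lie between -2.56 and -1.25, and in the forskolin comparison of NFIA cells Ptgs2 stands at 2.07.

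Neonatal brown adipose tissue used the genes in other proportions. Ptgs2 was at most 0.09 FPKM in the 6 tissue libraries, and Ptgs1 read 4.28, 5.14 and 4.32 FPKM in wild type and 5.50, 6.23 and 4.2 FPKM in the libraries labelled NFIA-KO (0.17 ± 0.17, adjusted p = 0.55). Ptger2, Ptger3 and Ptges read higher in every tissue library than in all C2C12 libraries. Across tissue and cells these levels were set side by side with no test, because the fits were separate.
Of the 8 members tested in tissue, 1 was called, with 7.14% of all 13618 tested genes called. That background of 973 genes fell to 29 and 63 without wild-type replicate 1 or 3, to 158, 138 and 561 without NFIA-KO replicate 1, 2 or 3, and to 40 with no filter. That member was Ptger3, a receptor that mostly lowers cAMP. It read 0.56, 0.45 and 0.56 FPKM in wild type and 1.48, 1.17 and 1.38 FPKM in the libraries labelled NFIA-KO. The groups did not overlap, and Ptger3 was 2.57-fold higher in the latter (0.62 ± 0.13, adjusted p = 0.044, limma). It entered the test through the NFIA-KO libraries alone, since no wild-type library reached 1 FPKM, and the call was lost in each of the 6 fits that left out a library, with adjusted p from 0.065 to 0.16.

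Ptger1 was the most abundant member in tissue. It read 58.6, 36.3 and 58.3 FPKM in wild type and 26.2, 26.8 and 13.5 FPKM in the libraries labelled NFIA-KO. The groups did not overlap and the means differed 2.30-fold, but the difference did not pass the test (-1.19 ± 0.30, adjusted p = 0.059, limma). Without wild-type replicate 2 the adjusted p was 0.039. The uncertainty over whose reads were counted applies here too, so whether Ptger1 is itself high in tissue cannot be told from these values.

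The other members overlapped between the tissue groups. Ptgis read 1.03, 0.62 and 0.45 FPKM in wild type and 4.16, 0.99 and 1.34 FPKM in the libraries labelled NFIA-KO, with replicate 1 of the latter well above the rest (0.78 ± 0.36, adjusted p = 0.20). Hpgd read 3.17, 3.96 and 6.2 FPKM and 5.79, 5.50 and 5.34 FPKM (0.30 ± 0.21, adjusted p = 0.39). Ptges was 2.22 ± 0.598 and 1.92 ± 0.191 FPKM, and Ptger2 was 0.983 ± 0.176 and 0.993 ± 0.240 FPKM (SD, n = 3 each). Hpgd, which was near 0 in NFIA-expressing C2C12 cells at day 7, read 3.17 FPKM or more in both tissue groups.
Other cell types moved with the tissue groups. The summed level of 6 mast cell markers was 33.8 to 56.3 FPKM in wild type and 93.1 to 252 in the libraries labelled NFIA-KO, with 4 of 5 tested markers called higher. Skeletal muscle markers summed to 39.8 to 81.2 and 153 to 970 FPKM, with 3 of 5 tested called higher, and brown adipocyte markers to 9890 to 13658 and 4677 to 5859 FPKM, with 3 of 6 called lower. Adipocyte markers summed to 2451 to 25338 FPKM in wild type and 14901 to 18424 in the libraries labelled NFIA-KO. The low wild-type value is replicate 3, where Fabp4 is listed at 0 against 21230 and 23064 FPKM in the other wild-type libraries, and without Fabp4 the sums were 1446 to 2451 FPKM in wild type and 1213 to 1673 in the libraries labelled NFIA-KO. The part of these cells in the tissue values, Ptger3 and Ptger1 included, was not tested. In C2C12 cells all mast cell markers together were at most 1.36 FPKM in any library.

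The supply of arachidonic acid comes first among the other genes of the pathway. Of 21 phospholipase A2 genes, 9 were tested in cells, and at day 7 NFIA cells had 6 higher and 2 lower, where 55.5% of all genes were called, with a list median of 0.68 beside -0.03 over all genes. Among the 6, Pla2g5 entered the test through NFIA libraries alone, since its mean was at most 0.157 FPKM in every control group. Pla2g16, an adipose phospholipase, was 103 FPKM on average in NFIA and 66.6 in control cells at day 7 (0.63 ± 0.20, adjusted p = 0.015, limma). Pla2g12a, a secreted form, was 38.6 and 14.7 FPKM (1.35 ± 0.18, adjusted p = 1.5e-05), and Pla2g6, a calcium-independent form, was 29.2 and 14.9 FPKM (0.92 ± 0.18, adjusted p = 0.00042). Pla2g7, which degrades platelet-activating factor, was lower, at 0.19 and 1.82 FPKM (-1.24 ± 0.13, adjusted p = 6.3e-07).
Another pair of phospholipases, named after their values were seen, went in opposite directions. Pla2g4a, the cytosolic enzyme that frees arachidonic acid for cyclooxygenases, read 2.42 to 3.20 FPKM in NFIA cells at day 7 and 13.6 to 18.8 FPKM in control cells (-2.16 ± 0.27, adjusted p = 5.3e-06, limma). Pla2g2e, a secreted form, read 10.7 to 14.3 FPKM in NFIA cells already at day 0, where control cells read 0.31 to 0.65 FPKM (3.14 ± 0.19, adjusted p = 1.1e-08, limma). The phospholipases as a list thus did not follow the cyclooxygenases, while Pla2g4a was lower beside them.

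Of 10 other prostanoid synthases 9 are in the table, and of the 6 tested 1 was higher and 2 were lower in NFIA cells at day 7 (list median -0.06, beside -0.03 over all genes), a share close to the 55.5% called over all genes. Akr1b8, an aldo-keto reductase, was lower, at 36.7 against 88.8 FPKM (-1.25 ± 0.12, adjusted p = 3.4e-07, limma). Cbr1, a carbonyl reductase that can turn prostaglandin E2 into prostaglandin F2 alpha, was higher, at 45.3 against 20.3 FPKM (1.12 ± 0.20, adjusted p = 0.00025, limma). Ptges3, a constitutive cytosolic prostaglandin E synthase and HSP90 co-chaperone, rose with forskolin in NFIA cells, from 43.0 to 61.8 FPKM (0.52 ± 0.14, adjusted p = 0.011, limma). Akr1b7, of the same list and named after its values were seen, rose there from 0.53 to 5.10 FPKM (1.98 ± 0.12, adjusted p = 7.5e-09, limma). Its forskolin responses differed between NFIA and control cells by 1.90 ± 0.17 (adjusted p = 1.2e-06, limma). Akr1b3, a reductase with prostaglandin F synthase activity, was lower in the tissue labelled NFIA-KO, at 11.2 to 14.0 against 20.7 to 27.6 FPKM (-0.90 ± 0.15, adjusted p = 0.029, limma).
Ptgfr, the prostaglandin F2 alpha receptor, and Ptgir, the prostacyclin receptor, were the 2 other prostanoid receptors tested of 5. Ptgfr rose with forskolin in control cells, from 4.30 to 7.32 FPKM up to 14.37 to 23.98 FPKM (1.39 ± 0.29, adjusted p = 0.012, limma). In NFIA cells it read 16.4 to 23.6 FPKM with forskolin and did not pass (0.75 ± 0.29, adjusted p = 0.064), and no difference between the responses was called (-0.64 ± 0.41, adjusted p = 0.33, limma). At day 7 without the drug Ptgfr was higher in NFIA cells, at 10.07 to 11.99 FPKM (0.77 ± 0.29, adjusted p = 0.036, limma). Ptgir, below the level set for naming and named after its values were seen, was lower in NFIA cells at day 7, at 0.26 to 0.33 FPKM against 1.43 to 1.62 FPKM (-0.94 ± 0.09, adjusted p = 2.2e-07, limma). Its ligand's synthase gene, Ptgis, was lower in the same cells.

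In prostaglandin transport and breakdown, 4 of 5 genes were tested, and at day 7 NFIA cells had 3 higher and 1 lower, with a list median of 1.21 beside -0.03 over all genes, of which 55.5% were called. Abcc4, a transporter that can export prostaglandins, read 6.46 to 7.41 FPKM in NFIA and 0.91 to 0.99 FPKM in control cells (1.996 ± 0.08, adjusted p = 1.4e-11, limma). It had fallen with time in control cells, from 5.55 to 6.43 FPKM at day 0 (-1.81 ± 0.08, adjusted p = 1e-10, limma). Cbr3, a carbonyl reductase, was higher with NFIA at 32.7 against 8.25 FPKM (1.86 ± 0.27, adjusted p = 3e-05), as was Ptgr2, a prostaglandin reductase, at 55.5 against 37.6 FPKM (0.55 ± 0.09, adjusted p = 9.2e-05). Ptgr1, a related reductase that acts after Hpgd, was lower at 11.9 against 30.4 FPKM (-1.29 ± 0.10, adjusted p = 1.7e-08, limma).
Of 13 genes that link the EP receptors to cAMP, 9 were tested in cells, and at day 7 NFIA cells had 2 higher and 4 lower, with a list median of -0.28 beside -0.03 over all genes, of which 55.5% were called. Gnas, which encodes the stimulatory G protein alpha subunit, was lower at 426 against 697 FPKM (-0.71 ± 0.14, adjusted p = 0.00039, limma). Prkaca, a catalytic subunit of protein kinase A, was lower at 81.9 against 108 FPKM (-0.39 ± 0.07, adjusted p = 0.00031, limma). Adcy7, an adenylyl cyclase named after its values were seen, was lower by more, at 5.59 against 45.8 FPKM (-2.83 ± 0.06, adjusted p = 1.6e-14, limma). With forskolin it read 4.20 against 41.1 FPKM (-3.02 ± 0.06, adjusted p = 6.7e-15, limma). The 2 higher genes were Adcy9, at 5.93 against 3.39 FPKM, and Adcy8, at 0.28 against 0.047 FPKM. Adcy8 entered the test through NFIA libraries alone, since its mean was at most 0.047 FPKM in every control group. Its highest mean was 1.21 FPKM, in NFIA cells at day 0. In tissue 1 of 8 tested was called, where 7.14% of all genes were, namely Adcy6, an adenylyl cyclase, lower at 42.3 against 72.0 FPKM (-0.76 ± 0.17, adjusted p = 0.047, limma). Adcy3, another adenylyl cyclase, fell from day 0 to day 7 in control cells (-0.62 ± 0.19, adjusted p = 0.015, limma). It also fell in NFIA cells (-0.98 ± 0.19, adjusted p = 0.00046, limma). At day 7 Adcy3 was not called between NFIA and control cells, at 1.19 against 1.44 FPKM (-0.19 ± 0.19, adjusted p = 0.44, limma). No alternative was run for the genes of these lists, Akr1b3 and Adcy6 in tissue included.

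**Figure D4:**
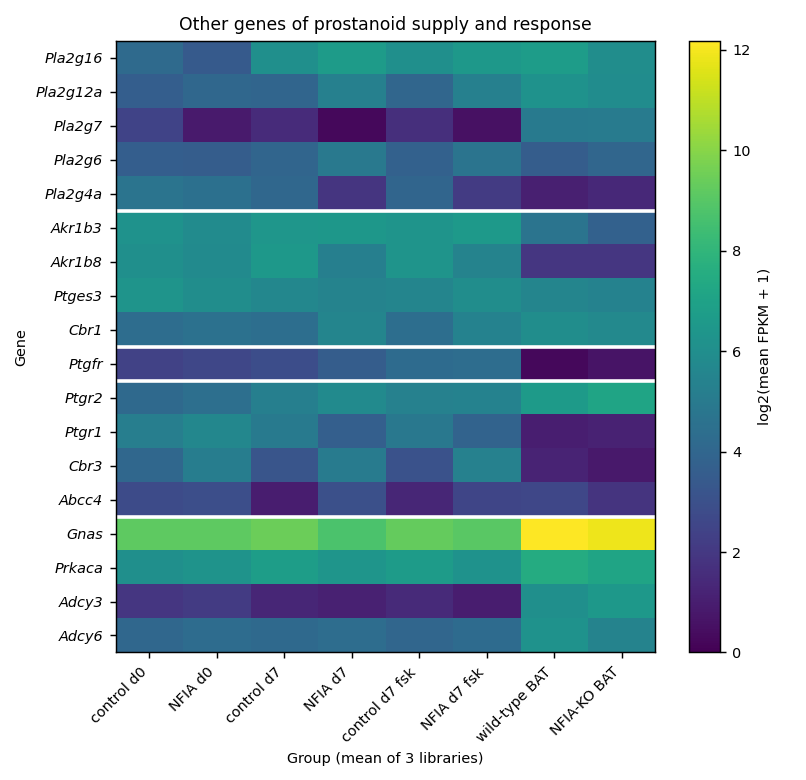
Group means as log2(mean FPKM + 1) for 18 other genes, with white lines between phospholipases, other synthases, the receptor Ptgfr, transport and breakdown, and cAMP signalling. At day 7, Pla2g4a is darker in NFIA than in control cells, at 2.72 against 15.7 FPKM, and Abcc4 is brighter, at 6.82 against 0.957 FPKM.

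Over the 18 C2C12 libraries, the genes whose log2(FPKM + 1) followed a member most closely were listed by Pearson's r. Ptgs1 was followed most closely by Itgb3 (r = 0.982), Plxnb1 (0.981) and Grem1 (0.979). For Ptgs2 they were Rai14 (0.974), Nrg1 (0.972) and Pdia3 (0.968), for Ptgis Sema3b (0.992), Plekho1 (0.991) and Spon2 (0.990), and for Hpgd Stra6 (0.988), Ociad2 (0.984) and Dync1i1 (0.983). For Ptger4 they were Fmnl3 (0.981), Wisp1 (0.976) and Cyth3 (0.975), for Ptgds Rbm38 (0.955), Ctrb1 (0.954) and Rarres2 (0.953), and for Ptger1 Tmco7 (0.964), Prr12 (0.952) and Mcm3ap (0.938). The 18 points share 6 group means, so a high r mostly reflects a like order of the groups.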

How the data were processed

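PolyA RNA of 18 C2C12 and 6 brown adipose tissue libraries was sequenced with a stranded TruSeq kit, per the labels. The deposited FPKM values, 1 table per library, came from TopHat and Cufflinks with the mm9 build, as the submitters' processing notes name them, without versions or an annotation. No read totals are given, and low values do not fall on whole-read steps, so depth is unknown and no counting error can be given. FPKM sums were 762822 to 1575522 per library, with 17304 to 21410 genes above 0. Rows of 1 symbol at overlapping loci were summed (264 of 37305).

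The test was that of limma 3.58.1 (R 4.3.3) on log2(FPKM + 1) values (moderated, two-sided, variance trend), in 1 fit of the C2C12 libraries and 1 of the tissue libraries, over genes with at least 1 FPKM in at least 3 libraries. Adjusted p-values are Benjamini-Hochberg over all tested genes of a comparison. The fit was tested on simulated data. All 10 members and Nfia were named. From the pathway lists, up to 4 called genes with a group mean of at least 5 FPKM were named, by level. Outside that rule, Pla2g4a, Pla2g2e, Pla2g5, Ptges2, Ptgir, Akr1b7, Adcy7, Adcy8 and Adcy9 were named after their values were seen. Members, lists and tests were chosen with earlier results of these data known. Alternatives were another pseudocount and filter, rescalings, zeros as missing, header date, replicate number and leaving out libraries. Promoters came from RefSeq on GRCm38.p6 (8 of 10 members matched), which is not the build of the files. One item is not reported here.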

Additional observations from a re-analysis of the deposited data

Results flagged for a closer look

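Differences between groups in the same contrast drew attention to 9 results, each by its own interaction test in limma with Benjamini-Hochberg adjustment over all genes. The change from day 0 to day 7 differed between NFIA and control cells for Ptgs2 (-2.93), Ptgis (-1.70), Ptger4 (-1.09), Ptgs1 (-1.004) and Hpgd (-0.997), all on the log2(FPKM + 1) scale and all toward lower levels in NFIA cells. The response to forskolin differed for Ptgs2 (2.21) and Ptgs1 (0.84), which rose in NFIA cells, for Ptger4 (0.62), which fell in control cells and was not called in NFIA cells, and for Ptger1 (-0.50), which fell in NFIA cells. Groups of 3 libraries are too small for a check for single samples that stand apart.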

How the results depend on the processing

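Of 41 calls of members in the C2C12 comparisons, 41 were kept with header date as a term, with zeros as missing and with median-of-ratios rescaling, 40 in the numbered libraries alone and with a pseudocount of 0.1, 39 with no filter, 38 with only the groups compared and 37 with quantile normalization. Calls were also gained: header date as a term and the numbered libraries alone added Ptger1 by day, Ptgds by forskolin and Ptgis at day 0. Quantile normalization and median-of-ratios rescaling also added Ptger1 by day and Ptgis at day 0. Quantile normalization further added Ptger1 for NFIA at day 7 and Ptger4 from day 0 to day 7 in control cells. The count of members called for NFIA at day 7 with forskolin was 4 under quantile normalization, against 7. For forskolin in control cells, leaving out a library gave 1 to 2 members, the second being Hpgd without control forskolin replicate 3. In tissue the count of 1 became 0 with no filter and 2 with quantile normalization, and leaving out a library gave 0 to 1. Over all genes, the tissue count of 973 became 40 with no filter and 29 to 561 in 5 of the 6 fits that left out a library, being 29 and 63 without wild-type replicate 1 or 3 and 158, 138 and 561 without NFIA-KO replicate 1, 2 or 3. The count for forskolin in control cells, 570, became 237 with only the groups compared and 1343 with header date as a term, and 369 and 368 without replicate 2 of the untreated or the forskolin group. With header date as a term, 3036 calls for NFIA at day 0 became 5303 and 2890 for the forskolin interaction became 5149, and the latter was 4620 in the numbered libraries alone. Under quantile normalization the share of higher calls from day 0 to day 7 in control cells was 39.6%, against 51.03%. The causes were not tested.

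Differences that were not called and changed sign were small. In the numbered libraries alone, Ptger4 from day 0 to day 7 in control cells was 0.027 and Ptger1 with forskolin in control cells was 0.011. Quantile normalization gave 0.054 for Ptgis with forskolin in NFIA cells and -0.0198 for Ptger2 in tissue, and a pseudocount of 0.1 gave -0.22 for the day interaction of Ptgds. Leaving out a library gave -0.027 to 0.35 for Ptgds with forskolin in control cells, -0.15 to 0.052 for Ptgis with forskolin in NFIA cells, -0.014 to 0.17 for the day interaction of Ptgds, -0.00810 to 0.22 for the forskolin interaction of Ptgis and -0.093 to 0.059 for Ptger2 in tissue.

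Labels number replicates 2 and 3 of the C2C12 groups. The difference of replicate 2 from replicate 3 was correlated across genes between each pair of groups, with values between -0.11 and 0.14. These low values do not show a pairing by number, and such a check cannot exclude one. The main fits took no pairing from the numbers. With the replicate number as a block, the numbered libraries gave 0.027 for Ptger4 from day 0 to day 7 and 0.011 for Ptger1 with forskolin, both in control cells, kept 40 of the 41 calls, and gave 4367 genes for the forskolin interaction. In tissue the replicate block gave 0 members called. Depth is unknown, so levels near 0, such as those of Ptger2 and Ptger3 in C2C12 cells, cannot be given a floor.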
